A study of Mus musculus with 8 samples.

Results

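The genes described here are 10 mouse genes of purine nucleotide synthesis, taken from the 27179 gene rows of a bulk RNA-seq count table by matching Entrez identifiers to symbols. They are the enzymes of de novo synthesis up to inosine monophosphate (IMP), encoded by Ppat, Gart, Pfas, Paics, Adsl and Atic, the guanine-branch enzymes encoded by Impdh1, Impdh2 and Gmps, and the salvage enzyme encoded by Hprt. All 10 passed the filter on low counts. The RNA came from MLL-AF9 acute myeloid leukaemia cells, labelled genotype WT, which carry the MLL-AF9 fusion oncogene and were sorted from bone marrow as GFP-positive, 7AAD-negative (living) cells. The first group, BCAA-free 5+3 (3 libraries, named only BCAA in the labels and read as the diet free of branched-chain amino acids from the title and design text), came from mice on a diet without leucine, isoleucine and valine. The second group, AA 5+3 (5 libraries), came from mice on the standard amino acid diet.

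Every recipient in both groups was a male mouse of 8 to 10 weeks into which the leukaemia cells had been injected intravenously without conditioning. Every recipient was also treated with 5+3 chemotherapy by intraperitoneal injection: cytarabine (100 mg/kg a day) ran over 5 days, and doxorubicin (3 mg/kg a day) over the initial 3. The marrow was taken when the response to chemotherapy was greatest. The leukaemia cells all descend from 1 terminally ill mouse and had been expanded in culture, so the libraries are separate recipients of 1 primary leukaemia, which the labels call biological replicates. GFP is driven by a ubiquitin element and luciferase by the β-actin promoter. How long the diet was fed is not given in the sources used here.

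Purine synthesis assembles the ring step by step on phosphoribosyl pyrophosphate (PRPP), drawing nitrogen from glutamine, glycine and aspartate and carbon from formyl-tetrahydrofolate, and ends at IMP. IMP is then turned into AMP through the adenine branch or into GMP through IMP dehydrogenase (IMPDH) and GMP synthetase, and HPRT can rebuild IMP and GMP from free hypoxanthine and guanine. IMPDH sets the rate of guanine nucleotide synthesis and is the target of mycophenolic acid; IMPDH2 is known as the isoform of dividing cells, and human IMPDH1 is known from inherited retinal degeneration.

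The comparison asked how leukaemia cells from BCAA-free mice differed from those of standard-diet mice after the same chemotherapy. Of the 10 purine genes, 1 rose and 0 fell: Impdh1, the minor IMP dehydrogenase, was 2.95-fold higher in BCAA-free than in standard-diet cells. The enzymes of de novo synthesis, Impdh2, Gmps and Hprt did not pass the test. A gene was called when its adjusted p was under 0.05 in edgeR's quasi-likelihood test with Benjamini-Hochberg adjustment over 13364 tested genes, called edgeR adjusted p from here on. By that rule 0.217% of all tested genes rose, 0.539% fell and 0.756% were called in either direction. Over the 10 genes the median log2 fold change (BCAA-free minus standard diet) was 0.06, beside 0.02 over all tested genes, and 7 of 10 had a positive value. At an unadjusted p under 0.05 there were 2 of the 10 (Adsl and Impdh1), beside 13.5% of all tested genes. Levels are given as normalised read counts (CPM, counts relative to the library total after TMM scaling), with the BCAA-free libraries listed as replicates 1 to 3 and the standard-diet libraries as replicates 1 to 5.

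**Figure D1:**
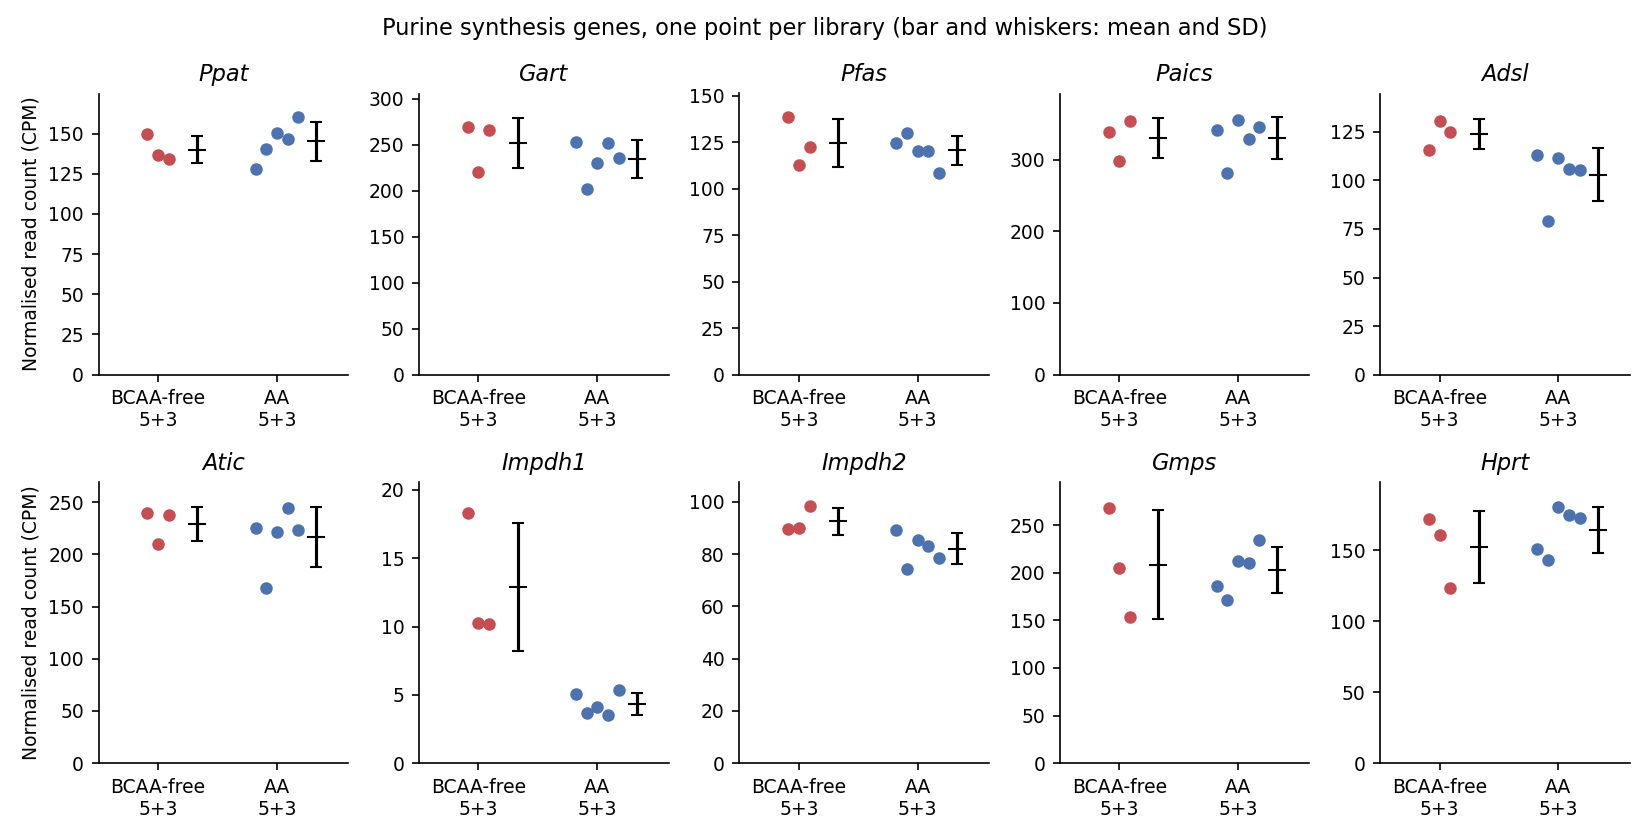
Normalised read counts (CPM, vertical axes from 0) of the 10 purine genes, with 1 point per library, BCAA-free 5+3 at the left and AA 5+3 at the right of each panel, and the mean with its SD as a bar and whiskers. Impdh1 at 10.2 to 18.3 CPM in BCAA-free libraries lies apart from its 3.54 to 5.38 CPM on the standard diet, while most of the other genes overlap.

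Ppat encodes the amidotransferase that commits PRPP to purine synthesis (gene 231327, chr5:76913249-76951578, minus strand; this and all further coordinates are on GRCm38.p6, the assembly named mm10). It had 149.6, 137 and 134 CPM in BCAA-free libraries, against 128, 140.4, 150.2, 147 and 160.4 CPM in standard-diet libraries. The BCAA-free values all lay inside the standard-diet range. The means were 140.1 ± 8.35 CPM in BCAA-free cells (SD, n = 3) and 145 ± 12.0 CPM in standard-diet cells (SD, n = 5), a log2 fold change of -0.05 (SE 0.10, edgeR adjusted p = 0.873).

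Gart encodes the trifunctional enzyme of the glycinamide ribonucleotide steps, the first of the formyl-folate users (gene 14450, chr16:91621395-91646972, minus strand). It had 269, 220.1 and 266 CPM in BCAA-free libraries, against 254, 203, 229.8, 252 and 236 CPM in standard-diet libraries. BCAA-free replicates 1 and 3 were above every standard-diet library and replicate 2 was among the lower ones, so the groups overlapped (log2 fold change 0.10, SE 0.11, edgeR adjusted p = 0.734). Pfas, the second glutamine-using enzyme of the route (gene 237823, chr11:68985701-69008460, minus strand), had 139, 113 and 122 CPM in BCAA-free libraries, against 125, 129.9, 120.1, 120.1 and 109 CPM in standard-diet libraries. The groups overlapped here too (log2 fold change 0.04, SE 0.10, edgeR adjusted p = 0.895).

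Paics encodes the bifunctional carboxylase and SAICAR synthetase that brings in carbon dioxide and aspartate (gene 67054, chr5:76951302-76967509, plus strand). It had 338, 298 and 353 CPM in BCAA-free libraries, against 341, 281, 355, 329 and 345 CPM in standard-diet libraries. The group means were nearly equal, at 329.9 ± 28.4 CPM in BCAA-free cells (SD, n = 3) and 330.1 ± 29.1 CPM in standard-diet cells (SD, n = 5). The 95% interval of the fold change, from the standard error of the fit, ran from 0.856 to 1.17 (edgeR adjusted p = 0.998).

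Adsl encodes adenylosuccinate lyase, which releases fumarate both in de novo synthesis and in the adenine branch (gene 11564, chr15:80948490-80970947, plus strand). It had 116, 131 and 125 CPM in BCAA-free libraries, against 113, 79.1, 112, 106 and 105 CPM in standard-diet libraries. All BCAA-free values lay above all standard-diet values, by a factor of 1.03 between the nearest libraries, and standard-diet replicate 2 was the lowest by far. The mean was 124 ± 7.56 CPM in BCAA-free cells (SD, n = 3) and 103 ± 13.8 CPM in standard-diet cells (SD, n = 5), a log2 fold change of 0.27 (SE 0.12, 95% interval of the fold 1.01 to 1.43) that did not pass adjustment over all genes (edgeR adjusted p = 0.341). In fits that left out 1 library the log2 fold change was 0.19 to 0.31, and none passed. Groups did not overlap, with BCAA-free higher, for 3 of the 10 genes (Adsl, Impdh1 and Impdh2), beside 4.17% of all tested genes. With BCAA-free lower it was 0 of the 10, beside 4.68% (8.84% in either direction). The Impdh2 groups overlapped once the counts of its pseudogene, described below, were added.

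Atic encodes the bifunctional enzyme that adds the last formyl group and closes the ring to IMP (gene 108147, chr1:71557156-71579403, plus strand). It had 240.0, 210.4 and 237 CPM in BCAA-free libraries, against 226, 168, 221, 245 and 224 CPM in standard-diet libraries. The groups overlapped, with standard-diet replicate 2 again the lowest (log2 fold change 0.08, SE 0.12, edgeR adjusted p = 0.816).

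Ppat and Paics are neighbours on opposite strands. Their start sites lie 276 bases apart with the gene spans overlapping by 277 bases, so that 272 bases of their first exons are the same stretch of DNA. Whether the authors counted by strand is not given in the sources used here, and reads from that stretch cannot be assigned with certainty. Gmps likewise overlaps the span of its neighbour Slc33a1.

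**Figure D2:**
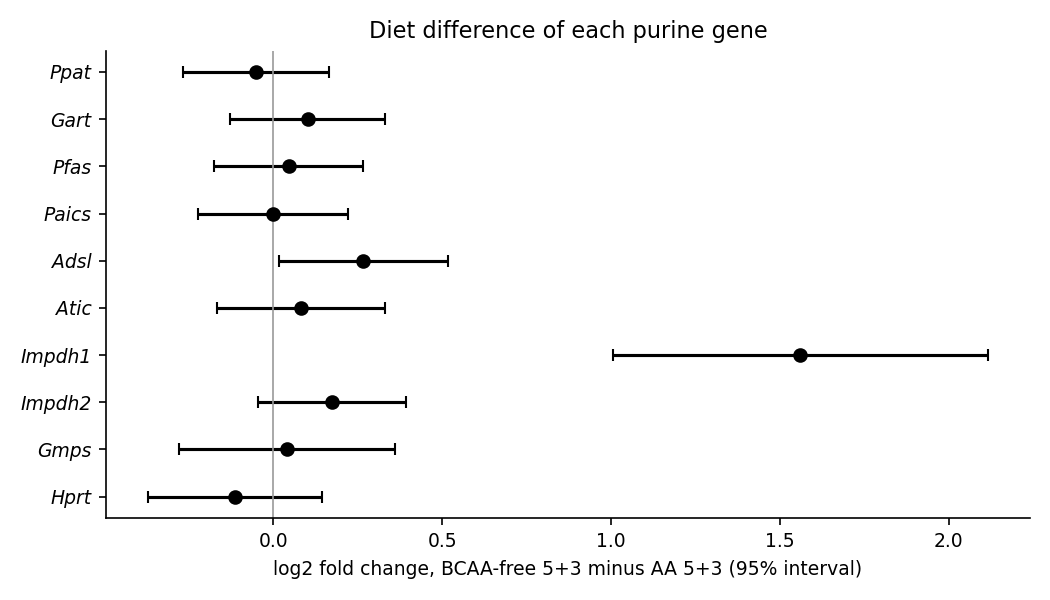
Log2 fold change of each purine gene (points, BCAA-free 5+3 minus AA 5+3, horizontal axis) with its 95% interval from the edgeR fit (bars). The interval of Impdh1 runs from 1.01 to 2.12, while the intervals of the other 9 genes lie between -0.37 and 0.52.

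Impdh1, on the minus strand at chr6:29200436-29216364 (gene 23917), oxidises IMP to xanthosine monophosphate, the first step towards GMP. It had 18.3, 10.2 and 10.2 CPM in BCAA-free libraries, from 273, 189 and 320 counted fragments or reads, against 5.04, 3.69, 4.09, 3.54 and 5.38 CPM in standard-diet libraries, from 198, 65, 103, 59 and 89. Each BCAA-free library was above every standard-diet library, the nearest pair differing by a factor of 1.89, and BCAA-free replicate 1 stood well above the other two. Against the standard-diet mean the BCAA-free replicates were at 4.21, 2.35 and 2.34 times its level. The exact 95% Poisson intervals of the BCAA-free libraries, which cover counting error only, were 16.2 to 20.6, 8.83 to 11.8 and 9.09 to 11.4 CPM. The highest bound among the standard-diet libraries was 6.62 CPM.

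The means were 12.9 ± 4.68 CPM in BCAA-free cells (SD, n = 3) and 4.35 ± 0.823 CPM in standard-diet cells (SD, n = 5). The log2 fold change was 1.56 (SE 0.26, edgeR adjusted p = 0.00896), with a 95% interval of the fold from 2.01 to 4.34. DESeq2 called the gene too (adjusted p = 1.52e-05), and so did limma-voom (adjusted p = 0.0272). It passed in 7 of the 8 edgeR fits that left out 1 library. Without BCAA-free replicate 1 the log2 fold change was 1.23 and missed the threshold (edgeR adjusted p = 0.0666, within a range of 1.52e-05 to 0.214 over all alternatives). With 1 library left out, the log2 fold change lay between 1.23 and 1.71. Impdh1 was the least abundant of the 10 genes, at percentile 28.8 of mean level among tested genes, where the other 9 were between percentiles 77 and 96.1.

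**Figure D3:**
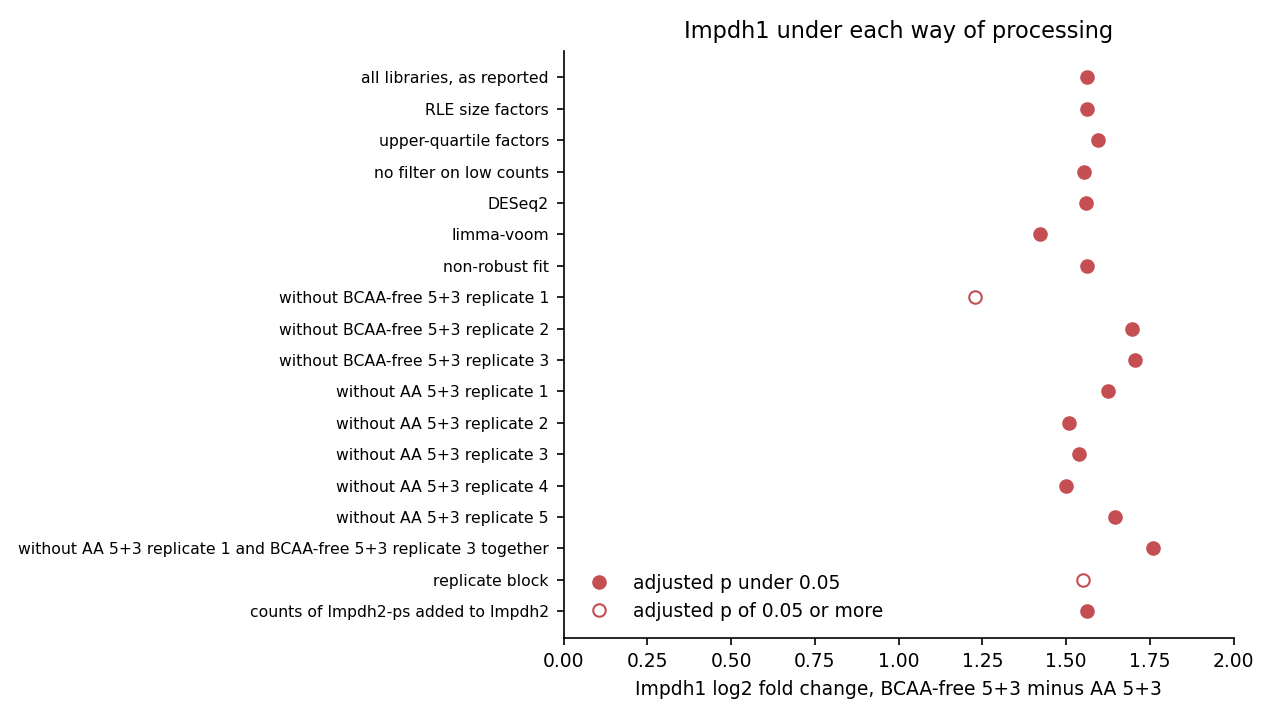
Log2 fold change of Impdh1 (horizontal axis, BCAA-free 5+3 minus AA 5+3) under each way of processing the counts, with filled points for an adjusted p under 0.05 and open points otherwise. All points lie between 1.23 and 1.76, and the open ones are the fit without BCAA-free 5+3 replicate 1 and the fit with a replicate block.

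The RefSeq table of GRCm38.p6 promoters holds 10 windows for 9 of the 10 genes, of which the 250 bases upstream of each start site were read. Impdh1 has 2 annotated start sites, 4067 bases apart on the minus strand, and both windows are shown beside that of Impdh2 because Impdh1 is the gene that rose and Impdh2 encodes the same enzymatic activity. The windows are chr6:29216365-29216614 and chr6:29212298-29212547 for Impdh1 (minus strand) and chr9:108560186-108560435 for Impdh2 (plus strand), each read 5′ to 3′ towards its start site. Capitals mark the E-box CACGTG, a sequence that MYC-MAX and related factors are known to bind.
Impdh1 upstream window 1: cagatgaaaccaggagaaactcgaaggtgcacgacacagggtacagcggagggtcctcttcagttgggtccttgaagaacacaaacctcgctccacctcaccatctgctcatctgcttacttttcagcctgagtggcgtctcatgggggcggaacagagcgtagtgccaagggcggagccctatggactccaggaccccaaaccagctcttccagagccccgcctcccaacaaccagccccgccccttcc
Impdh1 upstream window 2: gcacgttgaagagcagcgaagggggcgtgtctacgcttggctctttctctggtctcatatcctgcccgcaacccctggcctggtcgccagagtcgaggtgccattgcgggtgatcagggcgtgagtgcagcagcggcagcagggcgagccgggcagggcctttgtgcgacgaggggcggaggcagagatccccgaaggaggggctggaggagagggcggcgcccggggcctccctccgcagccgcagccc
Impdh2 upstream window: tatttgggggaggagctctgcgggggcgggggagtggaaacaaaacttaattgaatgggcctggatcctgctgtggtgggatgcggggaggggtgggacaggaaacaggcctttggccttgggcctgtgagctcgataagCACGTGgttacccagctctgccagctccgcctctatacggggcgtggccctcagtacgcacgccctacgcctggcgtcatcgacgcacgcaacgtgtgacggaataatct
The E-box, which is its own reverse complement, was found in 3 of the 10 windows (3 of the 9 genes), beside 6.02% of the 32851 windows of the table. It begins 110 bases before the start site in Impdh2, 203 before that of Paics and 7 before that of Atic. The CCAAT motif, searched on both strands, was in 3 of the 10 windows (those of Gart, Paics and Atic), beside 33.8% of all windows. Neither set of letters is in the Impdh1 windows. The table holds gene counts, so it does not say which Impdh1 start site the reads came from.

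Impdh2 encodes the second IMP dehydrogenase (gene 23918, chr9:108560436-108565577, plus strand). It had 89.4, 89.8 and 98.4 CPM in BCAA-free libraries, against 89.0, 74.3, 85.3, 83.3 and 78.4 CPM in standard-diet libraries. The groups did not overlap, but BCAA-free replicate 1 and standard-diet replicate 1 were equal to within a factor of 1.00 as rounded. The means were 92.5 ± 5.08 CPM in BCAA-free cells (SD, n = 3) and 82.1 ± 5.80 CPM in standard-diet cells (SD, n = 5), a log2 fold change of 0.17 (SE 0.10, edgeR adjusted p = 0.490) with a 95% interval of the fold from 0.969 to 1.31. The interval of Impdh1, from 2.01, begins above it.

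Most of the counts that match the Impdh2 sequence stood in another row. Impdh2-ps, a processed pseudogene (gene 100042069, chr8:100030487-100032156), is 99.7% identical to the Impdh2 transcript over 1545 aligned bases, and with reads of 38 bases the 2 can rarely be told apart. It held 5105, 6035 and 13000 counts in BCAA-free libraries, against 13242, 4560, 8128, 5624 and 5087 in standard-diet libraries. That was 3.64 to 4.20 times the count of Impdh2 in BCAA-free libraries and 3.48 to 4.05 times in standard-diet libraries, so the ratio was similar in all 8. The Impdh2 row on its own is therefore an uncertain measure of the level of Impdh2. In Impdh2-ps the log2 fold change was 0.21 (SE 0.11, edgeR adjusted p = 0.448).

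With the 2 rows added, an alternative chosen after seeing the data, the level was 454 ± 51.2 CPM in BCAA-free cells (SD, n = 3) and 395 ± 37.8 CPM in standard-diet cells (SD, n = 5). The groups then overlapped, at 417 to 512 CPM in BCAA-free libraries and 333 to 426 CPM in standard-diet libraries. The log2 fold change was 0.20 (SE 0.11, edgeR adjusted p = 0.447), beside 0.17 for the Impdh2 row alone. Among genes of the mouse annotation, no copy of Impdh1 at 90% identity or more over at least 200 bases was found, and its count was unaffected by the addition. Paics has 2 processed pseudogenes that reach this identity, and Gmps has 2 pseudogenes, 98.9% and 99.3% identical over 276 bases. Gart shares 291 identical bases with an antisense transcript. None of these was found among the rows of the table used here.

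**Figure D4:**
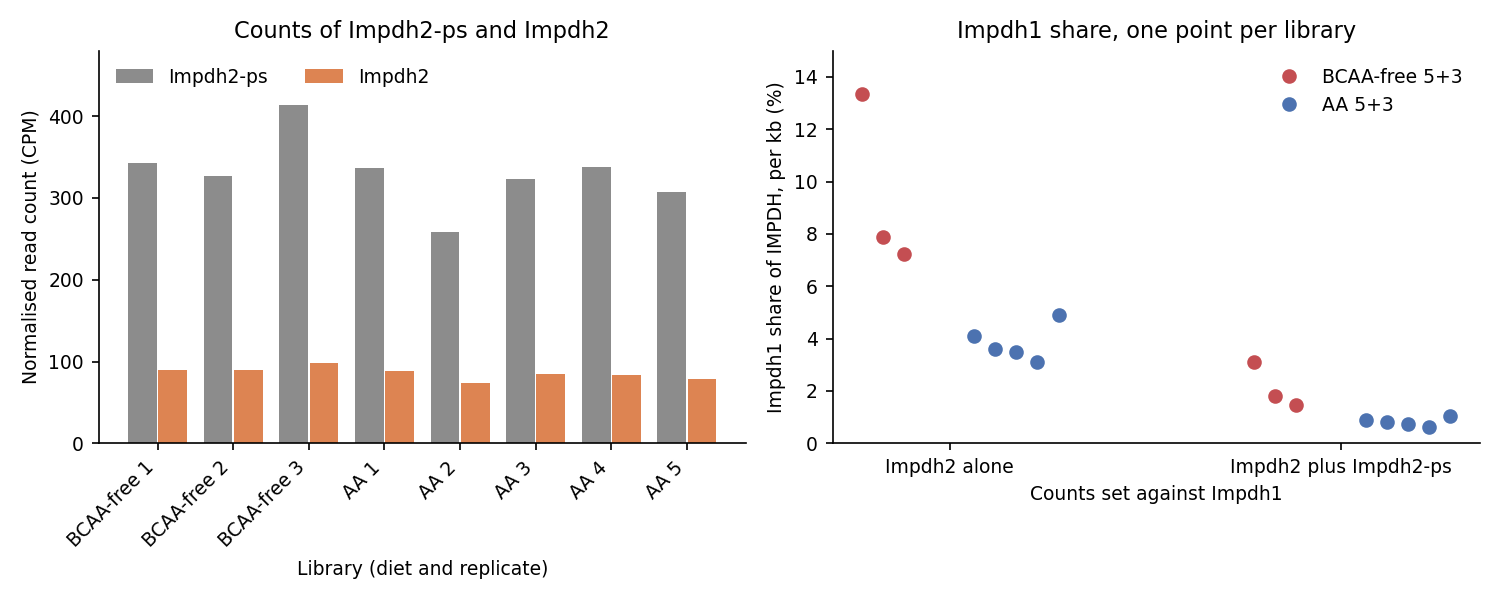
Left, normalised read counts (CPM) of Impdh2-ps and Impdh2 in each library (bars from 0); right, Impdh1 as a percentage of all IMP dehydrogenase transcripts per kilobase, with 1 point per library, set against Impdh2 alone or against Impdh2 plus Impdh2-ps. The pseudogene row holds more counts than Impdh2 in all 8 libraries, and the Impdh1 share is higher in each BCAA-free library than in each standard-diet library under both ways of counting.

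Divided by transcript length (2471 bases for Impdh1 and 1858 for Impdh2), Impdh1 made up 13.3%, 7.90% and 7.22% of the IMP dehydrogenase level in BCAA-free libraries, against 4.09%, 3.60%, 3.48%, 3.10% and 4.91% in standard-diet libraries. The means were 9.49% ± 3.36 (SD, n = 3) in BCAA-free cells and 3.83% ± 0.696 (SD, n = 5) in standard-diet cells. With the pseudogene counts given to Impdh2, the share was 3.09%, 1.81% and 1.47% in BCAA-free libraries, against 0.882%, 0.826%, 0.748%, 0.629% and 1.04% in standard-diet libraries. Impdh2 thus made up most of the level in both groups, whichever way it was counted. The share is a description without a test, since the Impdh1 difference was already known when it was chosen.

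Gmps encodes the glutamine-dependent synthetase that aminates xanthosine monophosphate to GMP (gene 229363, chr3:63963633-64021554, plus strand). It had 268, 205 and 153 CPM in BCAA-free libraries, against 186, 171, 212, 209.8 and 234 CPM in standard-diet libraries. The BCAA-free libraries held both the highest and the lowest value of the 8, with a coefficient of variation of 27.5% in BCAA-free cells and 12.1% in standard-diet cells. The log2 fold change was 0.04 (SE 0.15, edgeR adjusted p = 0.940), and it turned to -0.18 without BCAA-free replicate 1 and to -0.01 without standard-diet replicate 2, so no direction can be given.

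Hprt encodes the salvage enzyme that returns hypoxanthine and guanine to the nucleotide pool (gene 15452, chrX:52988078-53021660, plus strand). It had 172, 161 and 123 CPM in BCAA-free libraries, against 151, 143, 180.0, 175 and 173 CPM in standard-diet libraries. BCAA-free replicate 3 was the lowest of the 8 and the groups overlapped (log2 fold change -0.11, SE 0.12, edgeR adjusted p = 0.733). Without that library the log2 fold change was 0.01. The 95% intervals of the fold for the 9 genes other than Impdh1 all lay between 0.773 (Hprt) and 1.43 (Adsl).

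The order of levels per kilobase of transcript (CPM per kb) was the same at its top and bottom in both diets. It rests on 1 whole transcript length a gene, and the coding part of that length differs widely. For Gmps 2079 of 8105 bases are coding, for Ppat 1551 of 3981 and for Gart 3030 of 3518. Places in the middle of the order therefore depend on the length used, and an order by coding length is not given here. Paics was highest at 133 in BCAA-free cells and 133 in standard-diet cells, and Hprt followed at 118 in BCAA-free cells and 127 in standard-diet cells, with library ranges that overlapped those of Paics. Atic came next at 80.6 in BCAA-free and 76.2 in standard-diet cells, then Gart at 71.6 in BCAA-free and 66.8 in standard-diet cells, again with overlapping library ranges. Impdh2 had 49.8 in BCAA-free and 44.2 in standard-diet cells, below every library of Gart, or 244 in BCAA-free and 213 in standard-diet cells with the pseudogene counts, which would place it first. Ppat (35.2 in BCAA-free, 36.5 in standard-diet cells), Adsl (33.4 in BCAA-free, 27.7 in standard-diet cells) and Pfas (19.5 in BCAA-free, 18.9 in standard-diet cells) formed the lower group, together with Gmps, at 18.9 to 33.02 over the BCAA-free libraries and 21.1 to 28.9 over the standard-diet libraries. Neighbours within this lower group had library ranges that overlapped in 1 or both diets. Impdh1 was last at 5.22 ± 1.89 CPM per kb in BCAA-free cells and 1.76 ± 0.333 in standard-diet cells, below every library of Pfas.

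Some libraries were high or low for several of these genes together. BCAA-free replicate 1 was the highest of its group for 7 of the 10 (Ppat, Gart, Pfas, Atic, Impdh1, Gmps and Hprt). Standard-diet replicate 2 was the lowest of its group for 7 of the 10 (Gart, Paics, Adsl, Atic, Impdh2, Gmps and Hprt), with a median of -0.21 on the log2 scale against the standard-diet mean. Across all 8 libraries the highest value was 1.25 to 1.75 times the lowest for the 9 genes other than Impdh1 and 5.17 times for Impdh1.

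Around these genes, 66 others with a row in the table that supply, use or regulate purines or belong to the sister pyrimidine route were listed in 9 groups, and 64 of them were tested. By edgeR 0 of the 64 rose and 0 fell, with 13 at an unadjusted p under 0.05 (20.3%, beside 13.5% of all tested genes); DESeq2 called 0 higher and 1 lower, and limma-voom called 0. Their median log2 fold change was 0.03, beside 0.02 over all tested genes. From each list the gene with the smallest p is given.

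In PRPP supply, 0 of 5 tested genes were called (median log2 fold change 0.01). Prpsap1, a PRPP synthetase-associated protein, was at 46.5 ± 10.2 CPM in BCAA-free cells (SD, n = 3) and 41.2 ± 5.88 CPM in standard-diet cells (SD, n = 5; edgeR adjusted p = 0.666). The adenine branch had 0 of 8 called (median 0.03; Ampd1 and Ak6 were not tested). Adss, the adenylosuccinate synthetase that starts the branch, was at 167 ± 46.9 CPM in BCAA-free cells and 201 ± 11.7 CPM in standard-diet cells (edgeR adjusted p = 0.415).

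The 6 guanine nucleotide genes had 0 calls by edgeR, with a median of 0.26. Gda, the guanine deaminase that diverts guanine to xanthine, had 509.8, 463 and 360.2 CPM in BCAA-free libraries, against 636, 712, 720.1, 585 and 580.4 CPM in standard-diet libraries. Every BCAA-free library was below every standard-diet library (log2 fold change -0.54, SE 0.12), and the gene lay just short of the threshold (edgeR adjusted p = 0.0566). DESeq2 called it lower (adjusted p = 0.00257), as did edgeR with no filter on low counts (adjusted p = 0.00703), within a range of 0.00257 to 0.321 over all alternatives.

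Of 9 genes of other salvage and nucleoside handling, 0 were called (median -0.05). Pnp, the purine nucleoside phosphorylase that frees hypoxanthine and guanine from their nucleosides, was at 111 ± 5.10 CPM in BCAA-free cells and 142 ± 16.4 CPM in standard-diet cells, without overlap of the groups (edgeR adjusted p = 0.160). Its relative Pnp2 had the same log2 fold change of -0.36 and shares sequence with it, so the split of reads between them is uncertain. Among 8 tested genes of purine breakdown (median 0.24; Uox was not tested), 0 were called and 4 had an unadjusted p under 0.05. Itpa, which hydrolyses inosine triphosphate, was at 22.9 ± 3.17 CPM in BCAA-free cells and 16.0 ± 2.66 CPM in standard-diet cells (edgeR adjusted p = 0.199).

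The one-carbon genes that make or use up the formyl donor had 0 of 11 called, with 10 positive log2 fold changes and a median of 0.19. Aldh1l1, a formyl-tetrahydrofolate dehydrogenase that uses up the donor, was the 1 gene with a negative value. It was at 1.68 ± 0.819 CPM in BCAA-free cells and 3.50 ± 0.894 CPM in standard-diet cells (edgeR adjusted p = 0.289). Pyrimidine synthesis had 0 of 9 called (median 0.02). Cad, which carries its first enzymes, was at 261 ± 8.42 CPM in BCAA-free cells and 222 ± 11.7 CPM in standard-diet cells, without overlap (edgeR adjusted p = 0.290). The 3 ribonucleotide reductase subunits had a median of -0.28 and 0 calls, and Rrm2 was at 239 ± 27.4 CPM in BCAA-free cells and 289.8 ± 33.4 CPM in standard-diet cells (edgeR adjusted p = 0.311). Of 5 regulators 0 were called (median 0.04), and Myc was at 259 ± 43.7 CPM in BCAA-free cells and 239 ± 19.1 CPM in standard-diet cells (edgeR adjusted p = 0.698).

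**Figure D5:**
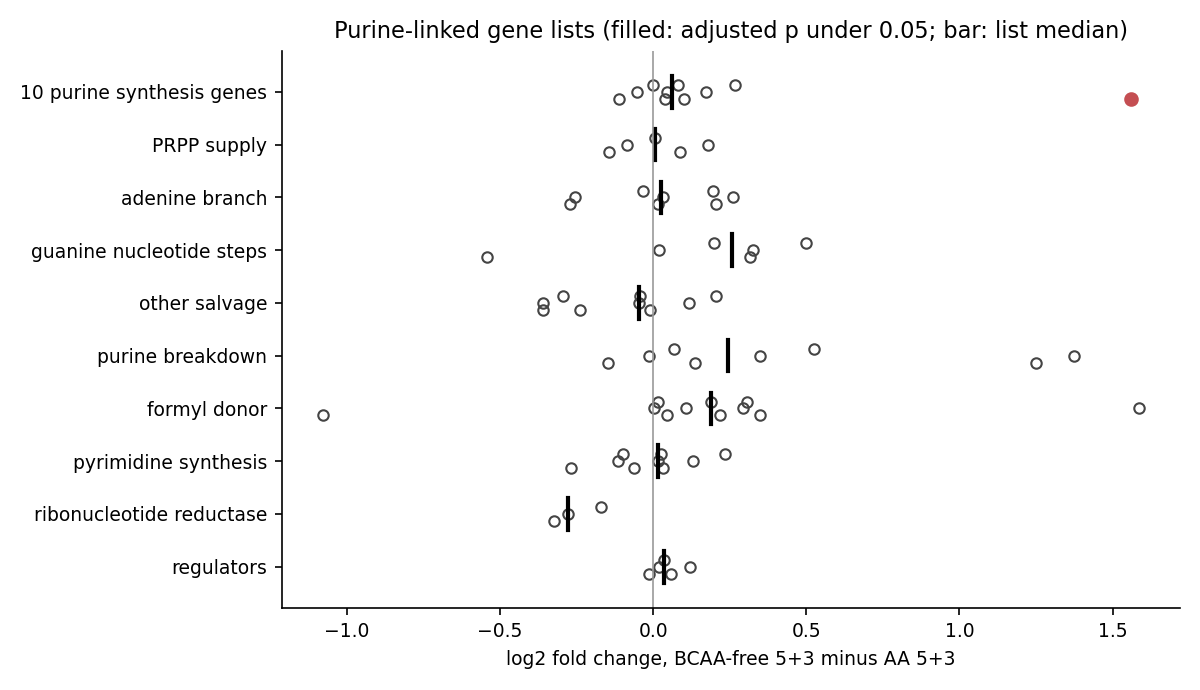
Log2 fold changes (horizontal axis, BCAA-free 5+3 minus AA 5+3) of the tested genes of each purine-linked list, with 1 point per gene, filled where the adjusted p was under 0.05, and a bar at the list median. The 1 filled point is Impdh1 at 1.56, and the list medians lie between -0.28 and 0.26.

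The genes whose pattern over the 8 libraries was most like that of Impdh1 were found by the root mean square difference of mean-centred log2 CPM, among the 12241 tested genes that averaged 1 CPM or more. They were Gas6 (0.25), Hif3a (0.30), 3010003L21Rik (0.33), E230001N04Rik (0.33) and Emilin2 (0.34), where the spread of Impdh1 itself on the same scale was 0.79. Being chosen for likeness to Impdh1, these genes had to differ between the diets as it does, so their levels are given as a description with no test. Hif3a, a hypoxia-inducible factor subunit, was at 21.0 CPM in BCAA-free cells and 8.13 CPM in standard-diet cells. Emilin2, an extracellular matrix glycoprotein, was at 48.6 CPM in BCAA-free cells and 21.7 CPM in standard-diet cells, and Gas6, a ligand of TAM receptors, at 2.43 CPM in BCAA-free cells and 0.573 CPM in standard-diet cells. For Ppat, with a spread of 0.10, the nearest were Eif3a (0.01), Baz1a (0.04), Srsf2 (0.04), Srsf6 (0.04) and Bcas2 (0.04).

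Library totals ran from 14851240 to 30306697 counts in BCAA-free libraries and from 16588662 to 38966911 counts in standard-diet libraries (two-sided exact permutation test over 56 splits, p = 0.857, the smallest possible p being 0.0357). Leukaemia markers such as Hoxa9, Meis1 and Mpo were expressed in all 8 libraries, with a summed level over 8 genes of 7355 to 8572 CPM in BCAA-free libraries and 8947 to 11490 CPM in standard-diet libraries. Most of that sum is Mpo, a granule enzyme gene, at 6236 ± 635 CPM in BCAA-free cells (SD, n = 3) and 8798 ± 1044 CPM in standard-diet cells (SD, n = 5; edgeR adjusted p = 0.0605), the 1 gene of the 8 whose groups did not overlap. Of the 8 leukaemia markers, 7 had negative log2 fold changes (median -0.19), and edgeR called 0. Sums over B cell, immediate early and proliferation genes also separated the groups (exact permutation p = 0.0357 for each of these 4 sums, 0.116 after adjustment over 13 measures). The 6 B cell markers summed to 26.5 to 107 CPM in BCAA-free libraries and 7.90 to 15.9 CPM in standard-diet libraries. All 5 tested had positive log2 fold changes (median 3.12). For 3 of the 5 the groups did not overlap, with BCAA-free higher, beside 4.17% of all tested genes. By edgeR 3 were called higher, Cd79a and Cd79b among them, by DESeq2 4 and by limma-voom 1. Ebf1 was at 0 in standard-diet replicate 4. The B cell sum, like Impdh1, was higher in every BCAA-free library than in every standard-diet library. The sum was highest in BCAA-free replicate 2 and Impdh1 in BCAA-free replicate 1. All 7 macrophage markers had an unadjusted p under 0.05, 0 were called by edgeR, and their median log2 fold change was 1.06. C1qa, C1qb, C1qc, Cd5l and Mrc1 had positive values of 0.91 to 1.65, in the direction of Impdh1, and 3 of these (C1qa, C1qc and Cd5l) had groups that did not overlap; DESeq2 called Mrc1 higher. Adgre1 (-0.63) and Vcam1 (-0.49) had negative values and are the most abundant of the 7, and the sum was 228 to 300.2 CPM in BCAA-free libraries and 286 to 397 CPM in standard-diet libraries. The 5 stroma and endothelium markers summed to 40.2 to 61.7 CPM in BCAA-free libraries and 24.9 to 43.3 CPM in standard-diet libraries. Their highest sum was in BCAA-free replicate 1, where Impdh1 was also highest, with 39.6 of the 61.7 CPM from Cxcl12. Of 3 tested, Cxcl12 was called higher (log2 fold change 2.18), while Lepr (0.53) and Pecam1 (-0.34) were not called. Pecam1 was at 22.1 CPM in BCAA-free cells and 28.0 CPM in standard-diet cells, with groups that overlapped. Its lowest value of the 8 libraries was in BCAA-free replicate 1. Lepr and Cdh5, like Cxcl12, were highest in BCAA-free replicate 1, at 1.35 CPM for Lepr and 2.02 CPM (30 counts) for Cdh5. Cdh5 was at 0 in BCAA-free replicates 2 and 3 and in standard-diet replicate 4. Col1a1 was highest in standard-diet replicate 1, at 2.64 CPM. The sums of the T and NK cell, erythroid, neutrophil, dendritic and megakaryocyte markers overlapped between the groups (exact permutation p from 0.107 to 0.679). Log2 fold changes were positive in 5 of 7 tested T and NK cell genes (median 1.41), 5 of 5 erythroid (1.46) and 7 of 7 neutrophil genes (0.41). They were positive in 1 of 3 dendritic genes (-0.01) and 1 of 1 megakaryocyte gene (1.18). In each of these lists edgeR called 0, and DESeq2 called 1 T and NK cell gene and 1 erythroid gene higher. The part of these in the Impdh1 difference was not tested. In bulk RNA of this kind, a change in the number of cells of a type and a change in RNA per cell cannot be told apart.

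The 10 immediate early genes, which respond to handling and stress, summed to 92.9 to 101 CPM in BCAA-free libraries and 61.4 to 76.5 CPM in standard-diet libraries. Of 8 tested, 0 were called and all 8 had positive log2 fold changes (median 0.66). An unadjusted p under 0.05 was found for 3 of the 8, beside 13.5% of all tested genes. For 3 of the 8 the groups did not overlap, with BCAA-free higher, beside 4.17% of all tested genes. Their gene of smallest p, Fos, was at 7.65 ± 1.35 CPM in BCAA-free cells and 3.59 ± 1.53 CPM in standard-diet cells (edgeR adjusted p = 0.173). The 14 proliferation genes summed to 5868 to 6477 CPM in BCAA-free libraries and 6907 to 7622 CPM in standard-diet libraries, with a median log2 fold change of -0.10 and groups that overlapped for all but Top2a and Mki67. By edgeR 1 of them fell, Top2a, a DNA topoisomerase of dividing cells, at 860.4 ± 21.7 CPM in BCAA-free cells and 1301 ± 55.4 CPM in standard-diet cells (log2 fold change -0.60, edgeR adjusted p = 0.00708). That call was lost without BCAA-free replicate 2 (edgeR adjusted p = 0.0568, within a range of 6.8e-09 to 0.277 over all alternatives). Mki67, a marker of cycling cells named after its values were seen, was at 1749 ± 35.2 CPM in BCAA-free cells and 2341 ± 129.6 CPM in standard-diet cells (edgeR adjusted p = 0.0531), and was called lower by DESeq2 and limma-voom. Their part in the levels of the purine genes was not tested.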

How the data were processed

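The authors deposited 1 table of raw counts per Entrez gene for 8 libraries of polyadenylated RNA (Kapa mRNA HyperPrep, paired 38 bp reads, per the labels' protocols), without normalization. The submitters' processing notes name the build mm10 and, as tools whose role and version they do not state, Cell Ranger and featureCounts. Not given in the sources used here were the aligner, the strand setting and the handling of multi-mapping reads, which makes counts of near-identical or overlapping genes uncertain. Columns were matched to samples by the description labels and groups come from the titles. RefSeq's GRCm38.p6 table named 25275 of the 27179 identifiers.

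The counts were fitted with edgeR 4.0.16 (R 4.3.3) over the 8 libraries, scaled by TMM, with its default filter (minimum count 10, minimum total 15), a robust quasi-likelihood F test of diet with no covariate, and Benjamini-Hochberg adjustment over 13364 genes at 0.05. Standard errors were taken as the log2 fold change over the root of the F statistic. The procedure was tested on simulated counts. Totals of 14851240 to 38966911 counts leave Impdh1 with 59 to 320 counts a library, and the other purine genes with at least 1297. Pairs of libraries within a group had a chi-square of 20.3 to 66.0 per degree of freedom, far above that of repeated sampling, so each was counted as a replicate. Nothing says how recipients were handled beyond the biological replicate label, and p-values measure the spread between these libraries. Marker sums use CPM of unscaled totals, and the values of some single markers are not reported here. Near-identical copies were searched with blastn 2.17.0 at 90% identity or more over at least 200 bases of annotated transcripts. Transcript lengths are those of 1 coding transcript a gene.

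The text names all 10 purine genes, every called gene of the other pathway lists or else the gene with the smallest p in each, and the 5 genes most like Impdh1 and Ppat. Members and lists were chosen with earlier results of these data known, and the call of Impdh1 was among those results. Alternatives were RLE and upper-quartile factors, no filter, DESeq2 1.42.0, limma-voom (limma 3.58.1), a non-robust fit, leaving out libraries, a replicate block, other length scalings for the share, and, added after seeing the data, the counts of Impdh2-ps given to Impdh2. A comparison of the IMP dehydrogenase proteins was not made here.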

Additional observations from a re-analysis of the deposited data

Results flagged for a closer look

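Adsl stood out in standard-diet replicate 2, at 79.1 CPM where the other 4 standard-diet libraries had 105 to 113 CPM. The gap to the nearest library was 0.777 of the range of the group, above the critical value of 0.71 for 5 samples. It was the 1 outlying value among 24 genes tested in this way, where chance gives about 1 in 20. Without that library the log2 fold change of Adsl was 0.19 (BCAA-free minus standard diet, edgeR adjusted p = 0.426, within a range of 0.274 to 0.780 over all alternatives).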

How the results depend on the processing

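The rise of Impdh1 kept its direction in all 17 alternatives and its call in 15. The calls over all genes, the purine genes and the other pathway genes were 101, 1 and 1 in the edgeR fit. Pathway genes here are the purine-linked lists together with the proliferation and immediate early genes. The 1 called by edgeR was Top2a, a proliferation gene, and 0 of the 64 tested purine-linked genes were called. With no filter on low counts 237 genes and 3 pathway genes were called, by DESeq2 376 and 3, and by limma-voom 64 and 2, the purine count staying at 1. The pathway genes called by DESeq2 were Gda, Top2a and Mki67, and those called by limma-voom were Top2a and Mki67. With 1 library left out, the calls ranged from 32 to 134 over all genes, from 0 to 1 among the purine genes (0 without BCAA-free replicate 1) and from 0 to 1 among the pathway genes (0 without BCAA-free replicate 2). The excess of the Impdh1 share in BCAA-free over standard-diet cells was 5.65 percentage points, and 3.72 to 6.79 with 1 library left out. It was 6.91 by coding length, 7.17 with no division by length and 1.30 with Impdh2-ps counted as Impdh2, which enlarges the denominator.

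Libraries with the same replicate number did not deviate together (correlations of -0.08, -0.05 and -0.30 for numbers 1, 2 and 3). The sources used here state no pairing by number, and such correlations cannot settle whether there was any. With a replicate block, calls were 0 over all genes, 0 among the purine genes and 0 among the pathway genes, and the log2 fold change of Impdh1 was 1.55 (edgeR adjusted p = 0.214). The block leaves standard-diet replicates 4 and 5 out of the diet difference, since no BCAA-free library shares their number.

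Log2 fold changes near 0 changed sign: Ppat with the block (0.0060), Pfas with the block (-0.0076), and others with 1 library left out. The ranges were then -0.038 to 0.10 for Pfas (negative without BCAA-free replicate 1), -0.21 to 0.014 for Hprt (positive without BCAA-free replicate 3), -0.18 to 0.22 for Gmps (negative without BCAA-free replicate 1 or standard-diet replicate 2) and -0.056 to 0.058 for Paics. The last was positive without BCAA-free replicate 2 or standard-diet replicate 1, 3 or 5. Paics was also positive with upper-quartile factors (0.033), limma-voom (0.00033) and the block (0.023). Myc lay between -0.030 and 0.20 with 1 library left out, negative without BCAA-free replicate 3, and at -0.0085 when standard-diet replicate 1 was dropped as well. The cause of these shifts was not tested. Counts of 59 to 320 a library limit the precision of Impdh1.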

Other observations

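The 13 purine-linked genes outside the 10 with an unadjusted p under 0.05 in edgeR went both ways, and those not yet described are given here, chosen after their values were seen. Nme2, a nucleoside diphosphate kinase that can make GTP from GDP, was at 137 ± 12.2 CPM in BCAA-free cells (SD, n = 3) and 110.0 ± 17.6 CPM in standard-diet cells (SD, n = 5), without overlap of the groups (log2 fold change 0.31, edgeR adjusted p = 0.306). Shmt2, the mitochondrial serine hydroxymethyltransferase that feeds the folate pool, was at 216 ± 42.9 CPM in BCAA-free cells and 169 ± 24.2 CPM in standard-diet cells (log2 fold change 0.35, edgeR adjusted p = 0.294). Dck, the kinase that phosphorylates deoxynucleosides and activates cytarabine, was at 66.2 ± 7.69 CPM in BCAA-free cells and 81.1 ± 12.5 CPM in standard-diet cells (log2 fold change -0.29, edgeR adjusted p = 0.348). Xdh, the xanthine dehydrogenase that makes uric acid, was at 27.6 ± 18.9 CPM in BCAA-free cells and 11.5 ± 5.11 CPM in standard-diet cells (log2 fold change 1.25, edgeR adjusted p = 0.325). Nt5c, a nucleotidase, was at 52.9 ± 8.76 CPM in BCAA-free cells and 41.5 ± 7.07 CPM in standard-diet cells (edgeR adjusted p = 0.331), and its relative Nt5c3b was at 5.07 ± 2.28 CPM in BCAA-free cells and 1.92 ± 1.33 CPM in standard-diet cells (edgeR adjusted p = 0.265). None of these 6 was called by edgeR, DESeq2 or limma-voom.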
